A study of Homo sapiens with 90 samples.

Results

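The 10 genes described here are the uroplakins UPK1A, UPK1B, UPK2, UPK3A and UPK3B, the transcription factors PPARG, GATA3, ELF3 and GRHL3, and the surface antigen gene PSCA. They were chosen by name as genes of urothelial differentiation. All 10 were found by symbol among the 53893 gene IDs of the deposited table, which holds 90 RNA-seq libraries. The study followed 6 human cancer cell lines under an inhibitor aimed at the driver pathway of each line, under THZ1, a covalent inhibitor of the transcriptional kinase CDK7, and under both together. RT112 is a urothelial bladder cancer line and received the FGFR inhibitor BGJ398 at 1 uM. The stomach cancer line N87 received the EGFR and HER2 inhibitor lapatinib at 100 nM, and the lung cancer line PC9 received the EGFR inhibitor erlotinib at 1 uM. A549, a lung cancer line, received the MEK inhibitor trametinib (GSK1120212) at 200 nM, H3122, another lung cancer line, received the ALK and MET inhibitor crizotinib at 250 nM, and the melanoma line A375 received the BRAF inhibitor vemurafenib at 1 uM. THZ1 was given at 25 nM in N87, 50 nM in A375 and H3122, 100 nM in PC9 and RT112 and 150 nM in A549. Each line had 5 arms of 3 libraries. After 48 h there were 4 arms, namely vehicle (0.1% DMSO), the line's own inhibitor (the targeted drug), THZ1, and both drugs at once (the combination), and 1 arm had taken the targeted drug for 7 days.

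Uroplakins are membrane proteins of the umbrella cells that line the bladder, where they assemble into the rigid plaques of the apical surface that keep urine out of the tissue. UPK1A and UPK1B are tetraspanins, of which UPK1A pairs with UPK2, and UPK1B with UPK3A or UPK3B. PPARG, a nuclear receptor for lipid ligands, GATA3, a zinc finger factor, ELF3, an ETS factor of epithelia, and GRHL3, a grainyhead factor needed for umbrella cells, act in urothelial maturation, and luminal bladder cancers are known for high levels of several of these genes.

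The RT112 libraries held 11.92 to 13.96 M expected counts and all 90 libraries 5.64 to 14.36 M. Levels are given as CPM, counts per 1 M of a library's own total, and fold changes as log2 ± SE from edgeR's quasi-likelihood fit, which rescales the libraries of a line to one another. A gene was called changed at a Benjamini-Hochberg adjusted p under 0.05 over all genes tested in that line. Nothing in the labels says that the 3 libraries of an arm came from separate cultures, so p-values measure only the spread between these libraries. In bulk RNA, fewer cells of a type and less RNA per cell cannot be told apart. There was no 7-day vehicle arm, so drug and time in culture cannot be told apart in any comparison of the 7-day arm. All comparisons with DMSO within a line use the same 3 DMSO libraries. An earlier analysis of these data named 5 libraries as standing apart from the other 2 of their arm. In RT112 they are those numbered 1 in the DMSO, BGJ398, combination and 7-day arms. In H3122 it is the library numbered 1 at 7 days. Whether they stand apart was not tested here. Calls that change without them are given with and without them.

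The tissue labels were set against marker genes. The tissue label of the A375 vemurafenib library numbered 4 (48 h) reads lung. That library was kept in A375 by its title and line label. RT112 in DMSO held FOXA1 at 163 CPM but the umbrella cell keratin KRT20 at only 1.13 CPM and SNX31 at 4.29 CPM. FOXA1 was higher in H3122, at 405 CPM, and KRT20 in N87, at 156 CPM, so neither gene sets RT112 apart. A375 held the melanocyte factor SOX10 at 953 CPM with TYR, the pigment enzyme tyrosinase, at 0. NKX2-1, a lung factor, stood at 227 CPM in H3122 and was near 0 in A549 and PC9. The other lung genes read were low in H3122 too, with SLC34A2 at 7.54 CPM, NAPSA at 1.14 CPM and SFTPA1 at 1.01 CPM. SFTPB was at 0.364 CPM and SFTPC at 0 there. The stomach genes GKN1, CLDN18 and LIPF were at 0 in N87 in DMSO.

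The 5 uroplakin genes sit on different chromosomes. On GRCh38, in the GENCODE v29 annotation, UPK1A lies at chr19:35666516-35678483, UPK1B at chr3:119173517-119205153, UPK2 at chr11:118925164-118958559, UPK3A at chr22:45284982-45295874 and UPK3B at chr7:76510428-76516521. PPARG lies at chr3:12287368-12434356, GATA3 at chr10:8045378-8075203, ELF3 at chr1:202007945-202017188 and GRHL3 at chr1:24319322-24364482, and all of these genes are on the plus strand. The authors counted on hg19, so these positions are for orientation only. The 250 bases before the annotated start are printed for 4 members whose responses are contrasted below. These are UPK1A and UPK3B, which rose under BGJ398 in RT112, UPK1B, which did not rise there at 48 h, and GRHL3, the gene of a factor. The sequences are from RefSeq on GRCh38.p14, plus strand, at chr19:35666267-35666516 for UPK1A, chr7:76510302-76510551 for UPK3B, chr3:119173348-119173597 for UPK1B and chr1:24319107-24319356 for the first of 2 GRHL3 starts. Capitals mark matches to the GATA motif AGATAA, read here on the opposite strand.
UPK1A: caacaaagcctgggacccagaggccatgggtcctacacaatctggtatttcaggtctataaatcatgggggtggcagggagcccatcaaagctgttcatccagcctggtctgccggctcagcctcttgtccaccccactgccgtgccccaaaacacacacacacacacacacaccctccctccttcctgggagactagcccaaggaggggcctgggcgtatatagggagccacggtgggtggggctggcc
UPK3B: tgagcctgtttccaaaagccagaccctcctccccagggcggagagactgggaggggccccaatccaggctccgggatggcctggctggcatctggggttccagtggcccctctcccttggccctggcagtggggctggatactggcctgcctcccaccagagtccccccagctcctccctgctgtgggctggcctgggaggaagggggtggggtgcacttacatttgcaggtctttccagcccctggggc
UPK1B: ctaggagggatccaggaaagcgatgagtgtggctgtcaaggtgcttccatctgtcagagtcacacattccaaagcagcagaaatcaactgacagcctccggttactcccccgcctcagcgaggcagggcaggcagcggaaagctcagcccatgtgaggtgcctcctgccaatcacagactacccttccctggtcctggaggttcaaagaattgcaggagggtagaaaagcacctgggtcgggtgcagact
GRHL3: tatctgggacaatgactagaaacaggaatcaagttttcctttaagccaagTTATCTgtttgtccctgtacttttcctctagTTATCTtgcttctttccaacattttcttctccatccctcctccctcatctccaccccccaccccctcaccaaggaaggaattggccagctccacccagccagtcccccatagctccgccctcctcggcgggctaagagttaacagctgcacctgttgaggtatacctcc

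Matches were few in these windows, and those of UPK1A, UPK1B and UPK3B held none of the motifs searched. No promoter of UPK2 or UPK3A was in the RefSeq set used. RefSeq promoters were matched for 7 members, 18 promoters in all, and motifs were searched on both strands from 250 bases before to 50 bases after each start. AGATAA was found in 2 of the 18, 1 of GRHL3 and 1 of PPARG, and in 10.33% of all 35116 promoters of that length. In the GRHL3 window its 2 matches begin 200 and 169 bases before the start. TGATAA was found in 3 of the 18, again in GRHL3 and PPARG, and in 7.53% of all promoters. The grainyhead motif AACCGGTT (0.13% of all promoters), the ETS motifs AGGAAGT (8.24%) and CGGAAGT (6.83%) and the direct repeat bound by PPAR and RXR (0.31%) were found in 0 of the 18. A missing match says only that these letters are not in the window.

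In DMSO, every RT112 library held more of 4 of the 10 genes than any library of another line, and UPK3A was close to absent there. UPK1A, UPK1B, PPARG and GATA3 were highest in RT112, UPK2, UPK3A and PSCA in PC9, and UPK3B and GRHL3 in N87, while the place of ELF3 rested on 1 library. UPK1B stood at 508.7 ± 5.01 CPM (SD, n = 3) in RT112 and 234.5 ± 2.22 CPM in A549, and was below 1 CPM in every DMSO library of PC9, A375 and H3122. The lowest RT112 library (503 CPM) was above the highest A549 library (237 CPM). GATA3 averaged 286 ± 42.5 CPM in RT112 and 101.9 ± 10.8 CPM in PC9, and the other 4 lines stood between 3.25 and 6.38 CPM. Their ranges overlapped from one line to the next, so A375, A549, N87 and H3122 could not be ordered for GATA3. PPARG averaged 151 ± 6.25 CPM in RT112, then about equally 50.2 ± 3.63 CPM in A375 and 48.5 ± 4.13 CPM in N87, whose libraries overlapped, and least in H3122 at 7.06 ± 0.860 CPM. ELF3 averaged 765 ± 260.0 CPM in RT112 and 645 ± 10.3 CPM in H3122, and these 2 lines overlapped. The RT112 mean was the higher of these only through the library numbered 1, at 1065 CPM: the other 2, at 603 and 628 CPM, lay below every H3122 library (634 to 654 CPM).

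Among the uroplakin partners the order differed. UPK3B averaged 339.6 ± 3.36 CPM in N87, 227 ± 15.8 CPM in RT112, 16.9 ± 1.32 CPM in A549, 13.8 ± 0.410 CPM in PC9 and 5.76 ± 1.63 CPM in A375, with no overlap between neighbours in that order, and at most 0.196 CPM in an H3122 library. UPK2 averaged 38.6 ± 1.97 CPM in PC9, 28.6 ± 2.19 CPM in RT112 and 7.38 ± 0.636 CPM in N87. UPK1A reached 4.93 ± 0.703 CPM in RT112 and at most 0.772 CPM in a library of any other line. UPK3A was highest in PC9, at 0.844 ± 0.164 CPM. In A375 and A549 UPK3A had 0 counts in all 15 libraries, which allows up to 0.126 and 0.160 CPM per arm of 3 libraries in the least covered arm. RT112 had 13 counts of UPK3A in its 15 libraries together. PSCA averaged 106.7 ± 1.78 CPM in PC9, 52.5 ± 4.54 CPM in RT112 and 7.71 ± 0.337 CPM in N87.

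**Figure D1:**
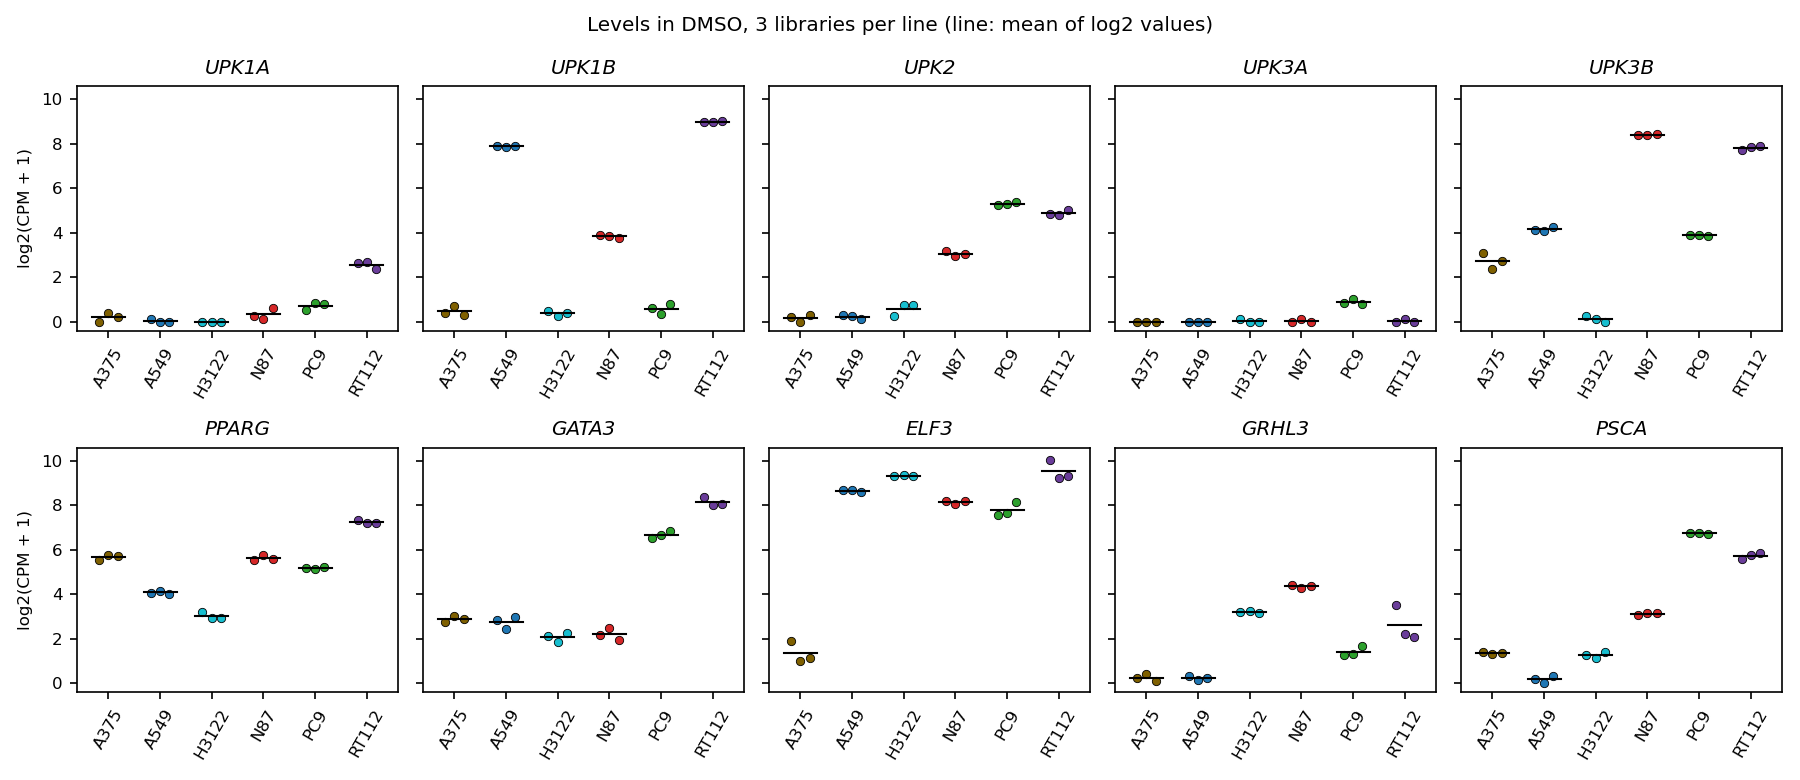
Level of each of the 10 genes in DMSO as log2(CPM + 1), 1 panel a gene, with the 6 lines on the horizontal axis and 1 point a library (3 a line). UPK1A, UPK1B, PPARG and GATA3 are highest in RT112, UPK2, UPK3A and PSCA in PC9, and UPK3B and GRHL3 in N87, and for ELF3 1 RT112 library lies above H3122 and 2 below it.

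Across the 6 DMSO arms, 9 members could be tested between RT112 and each other line. RT112 was higher for 9 of 9 against A375 (77.1% of all genes tested were called in either direction, 37.8% higher in RT112) and for 9 of 9 against A549 (76.4%, 38.5% higher). It was higher for 7 and lower for 0 of 9 against H3122 (74.9%, 37.3% higher), and higher for 7 and lower for 2 against N87 (73.0%, 36.6% higher) and against PC9 (75.2%, 37.4% higher). The 4 genes that were lower in RT112 were UPK2 (-0.35 ± 0.09) and PSCA (-0.94 ± 0.06) against PC9, and UPK3B (-0.59 ± 0.06) and GRHL3 (-1.75 ± 0.25) against N87. ELF3 and GRHL3 were not called against H3122. ELF3 was called higher in RT112 without its DMSO replicate 2 (adjusted p = 0.0266) or 3 (adjusted p = 0.0413), which leave the library that stands apart in place. For GRHL3 the missing call rests on 1 library: without RT112 DMSO replicate 1 it was lower in RT112 by 1.27 on the log2 scale (adjusted p = 4.4e-07). The 5 comparisons share the RT112 libraries.

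Of the 60 pairs of a member and a line, 45 passed the filter on low counts and were tested. Under the targeted drug at 48 h, 29 of the 45 rose and 8 fell against DMSO, where 66.0% of all genes tested were called, 33.0% in each direction. With THZ1 added, 8 rose and 24 fell against the targeted drug alone (all genes 54.9%, 27.4% lower). THZ1 alone against DMSO gave 9 higher and 15 lower (all genes 41.9%, 21.3% lower). The combination against DMSO gave 28 higher and 10 lower (65.3%), 7 days against DMSO 25 and 14 (71.3%), and 7 days against 48 h 16 and 19 (47.8%), all over the same 45 pairs. UPK1A and UPK3A in N87, UPK3A in PC9, UPK2 in H3122, GRHL3 in A375 and PSCA in A549 averaged below 1 CPM in DMSO and were tested because another arm was higher, so their calls are part of how the 45 came about. By line, the 48 h counts of higher and lower were 7 and 1 of 9 in RT112 (all genes 69.3% called, 34.2% higher), 9 and 1 of 10 in N87 (70.9%, 35.5% higher) and 7 and 1 of 8 in PC9 (67.9%, 35.2% higher). They were 4 and 1 of 6 in A549 (74.1%), 1 and 2 of 6 in H3122 (46.1%) and 1 and 2 of 6 in A375 (67.2%). The median log2 change of the tested members was 1.23 in RT112, 1.77 in N87, 1.48 in PC9, 0.72 in A549, 0.13 in H3122 and -1.07 in A375, beside 0.00 to 0.04 over all genes. In A375 the 0.52 rise of UPK3B, its 1 member called higher, is not called by every alternative (given with that gene), and whether the members' shares differ from those of all genes was not tested.

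**Figure D2:**
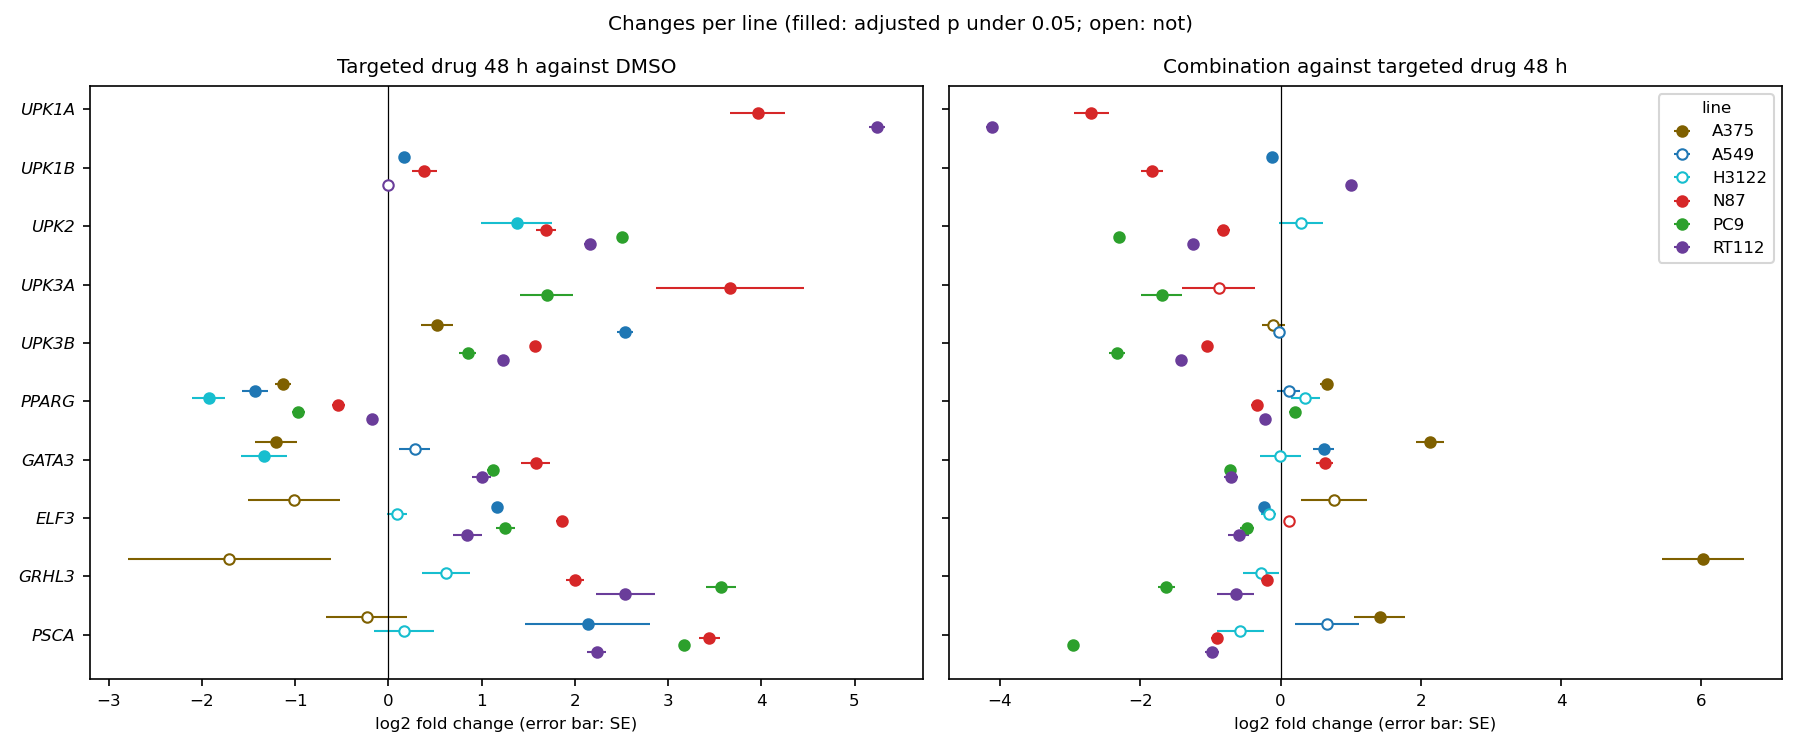
Log2 fold change of each tested member in each line (45 pairs), on the left for the targeted drug at 48 h against DMSO and on the right for the combination against the targeted drug, with filled points for called genes and bars of 1 SE. Most points of RT112, N87 and PC9 are above 0 on the left and below 0 on the right. The A375 point at 6.02 on the right is GRHL3 and rests on 1 count in the vemurafenib arm.

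UPK1A, the tetraspanin that pairs with UPK2, showed the largest change of any member in RT112. Its 3 DMSO libraries held 5.30, 5.37 and 4.12 CPM, and the 3 BGJ398 libraries at 48 h held 199.8, 212 and 216 CPM. At 7 days the libraries held 724, 744 and 754 CPM. No arm overlapped another among these 3, and the level stood 42.5-fold above DMSO at 48 h and 150-fold above it at 7 days on the CPM scale (log2 5.24 ± 0.09 and 7.08 ± 0.09, adjusted p = 3.8e-16 and 6.2e-18 in edgeR's quasi-likelihood test). With THZ1 beside BGJ398 UPK1A read 9.95, 11.8 and 13.3 CPM. That is 2.37-fold the DMSO level (log2 1.13 ± 0.11) and lower than BGJ398 alone (log2 -4.11 ± 0.08). THZ1 alone gave 5.23, 6.20 and 4.87 CPM, which overlaps DMSO and was not called (log2 0.06 ± 0.13).

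UPK1A behaved alike in direction in N87, from a far lower start. The lapatinib libraries held 4.62, 5.35 and 4.74 CPM at 48 h and 35.7, 37.8 and 35.7 CPM at 7 days, against 0.192, 0.0972 and 0.546 CPM in DMSO (log2 3.96 ± 0.30 and 6.84 ± 0.21). The combination held 0.974, 0.768 and 0.535 CPM, lower than lapatinib alone (log2 -2.70 ± 0.25), and the lowest combination library was below the highest DMSO library. Its call above DMSO (log2 1.27 ± 0.46, adjusted p = 0.0229) was lost without DMSO replicate 1 or 2 or combination replicate 1 (adjusted p 0.0917 to 0.146), and with no filter on low counts (adjusted p = 0.0544). In A375, A549 and H3122 UPK1A never reached 1 CPM, and in PC9 the highest library, at 7 days, held 2.28 CPM.

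UPK1B, the other tetraspanin, went its own way in RT112. DMSO held 503, 511 and 513 CPM, and BGJ398 at 48 h held 544, 566 and 591 CPM. Although these CPM ranges do not overlap, the fit that rescales the libraries put the change at -0.005 ± 0.036, and UPK1B was not called. With library totals as the only scaling it was called higher (log2 0.16, adjusted p = 0.0012), and that scaling moved the median of all genes by 0.16 in the same comparison. THZ1 alone raised UPK1B to 824, 818 and 793 CPM (log2 0.60 ± 0.04). The combination raised it further, to 1110, 1128 and 1064 CPM, 1.00 ± 0.04 above DMSO and 1.01 ± 0.04 above BGJ398 alone on the log2 scale. It was the 1 member of the 9 tested in RT112 that rose when THZ1 was added to BGJ398. At 7 days it read 796, 798 and 811 CPM (log2 0.51 ± 0.04 against DMSO).

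UPK1B moved otherwise in the other 2 lines that express it. In N87 the lapatinib libraries held 21.1, 15.4 and 19.7 CPM beside 14.0, 13.4 and 12.7 CPM in DMSO (log2 0.39 ± 0.14, a call lost with the replicate block, adjusted p = 0.0893, and without DMSO replicate 4 or lapatinib replicate 1 or 3, 0.0603 to 0.107). The combination held 4.60, 6.56 and 5.01 CPM, lower than lapatinib (log2 -1.83 ± 0.16). THZ1 alone left 5.34, 7.77 and 5.01 CPM in N87 (log2 -1.22 ± 0.16). In A549 UPK1B was 235, 232 and 237 CPM in DMSO, 250.7, 263 and 269 CPM under trametinib at 48 h (log2 0.17 ± 0.04) and 131, 115 and 121 CPM at 7 days (log2 -0.89 ± 0.04). So THZ1 alone went with more UPK1B in RT112 and A549 (log2 0.35 ± 0.04) and less in N87.

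UPK2, the single-pass partner of UPK1A, rose under the targeted drug in each of the 4 lines where it was tested. In RT112 it went from 27.5, 27.1 and 31.1 CPM to 135, 149 and 146 CPM at 48 h and 313, 306 and 301 CPM at 7 days, 5.01-fold and 10.7-fold above DMSO (log2 2.16 ± 0.06 and 3.28 ± 0.06). The combination held 54.5, 57.9 and 62.7 CPM, between DMSO and BGJ398 with no overlap to either. THZ1 alone, at 47.6, 53.8 and 48.2 CPM, was also above DMSO (log2 0.73 ± 0.06).

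PC9 and N87 also showed a rise of UPK2 under their own drugs and a lower level with THZ1 added. In PC9 UPK2 went from 37.1, 38.0 and 40.9 CPM to 192, 209 and 198.5 CPM with erlotinib (log2 2.50 ± 0.05). The combination held 41.5, 46.7 and 39.7 CPM, overlapping DMSO although called slightly higher (log2 0.20 ± 0.06), a call lost with no filter on low counts (adjusted p = 0.0532) and without combination replicate 2 (adjusted p = 0.0812). THZ1 alone lowered UPK2 in PC9 to 21.2, 21.4 and 18.8 CPM (log2 -0.98 ± 0.07). In N87 UPK2 went from 8.06, 6.81 and 7.28 CPM to 24.6, 24.9 and 26.7 CPM (log2 1.69 ± 0.11), with 16.6, 12.5 and 15.2 CPM in the combination. H3122 rose from a mean of 0.519 ± 0.279 to 1.47 ± 0.104 CPM (SD, n = 3; log2 1.38 ± 0.38). BCL9L, which overlaps UPK2 on the other strand in the annotation, read 228 CPM in RT112 DMSO, 293 CPM under BGJ398 and 274 CPM at 7 days. No source used here says whether strand was used in counting, so reads of the 2 genes may be mixed where they overlap.

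UPK3A, a partner of UPK1B and the uroplakin used as a marker of finished umbrella cells, was barely measurable in RT112. Its highest library there was one of the 7-day arm, at 0.390 CPM. In PC9 UPK3A went from 0.781, 1.03 and 0.720 CPM in DMSO to 2.83, 2.37 and 2.37 CPM with erlotinib (log2 1.70 ± 0.28), and was 0.917, 0.710 and 0.817 CPM in the combination. In N87 it had 1 count in the 3 DMSO libraries together, 0.421, 0.706 and 0.594 CPM under lapatinib, and 2.10, 1.86 and 1.69 CPM at 7 days. The N87 combination was called above DMSO (log2 2.78, adjusted p = 0.0095). That call was lost with the replicate block (adjusted p = 0.0520).

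UPK3B, the other partner of UPK1B, was called higher in each of the 5 lines where it was tested at 48 h, in A375 not in every alternative. The largest change was in A549, from 16.5, 15.9 and 18.4 CPM to 87.4, 106.4 and 98.0 CPM under trametinib (log2 2.54 ± 0.08), and the 7-day libraries had returned to 22.9, 23.1 and 24.3 CPM. In RT112 it went from 209.8, 229 and 241 CPM to 576, 604 and 599.5 CPM at 48 h and 731, 748 and 693 CPM at 7 days (log2 1.23 ± 0.04 and 1.53 ± 0.04). The RT112 combination, at 209, 212 and 219.9 CPM, lay within the range of DMSO in 2 of 3 libraries and was called slightly lower than DMSO (log2 -0.20 ± 0.04), but not with library totals as the scaling (log2 -0.09, adjusted p = 0.127). In N87 the level went from 336, 339.5 and 343 CPM to 1097, 1039 and 1106 CPM (log2 1.57 ± 0.05) and was 567, 510.2 and 529.7 CPM in the combination.

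Where UPK3B fell with THZ1, it did so to different depths. In PC9 it read 14.1, 14.0 and 13.3 CPM in DMSO, 25.1, 21.4 and 21.5 CPM with erlotinib (log2 0.85 ± 0.09), 4.55, 5.65 and 4.85 CPM with THZ1 and 5.25, 4.16 and 4.802 CPM in the combination. Both THZ1 arms of PC9 were thus below every DMSO library (log2 -1.52 ± 0.12 and -1.49 ± 0.12). In A549 THZ1 did not lower it: the combination held 88.7, 107.7 and 104.9 CPM, overlapping trametinib alone (log2 -0.02 ± 0.07). A375 showed a small rise under vemurafenib (log2 0.52 ± 0.17), which was not called by DESeq2 (adjusted p = 0.0516) or without DMSO replicate 3 (0.0734) or vemurafenib replicate 1 (0.0620). At 7 days UPK3B in A375 fell to 1.38, 1.24 and 1.06 CPM from 7.44, 4.17 and 5.67 CPM in DMSO (log2 -2.28 ± 0.22). The pseudogene UPK3BP1, a near copy, held at most 0.118 CPM in any RT112 arm. Another near copy, the coding gene UPK3BL1, was not found by ID among the counted genes, so sharing of reads with it could not be read. The expected count of UPK3B was whole in 48 of the 90 libraries.

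**Figure D3:**
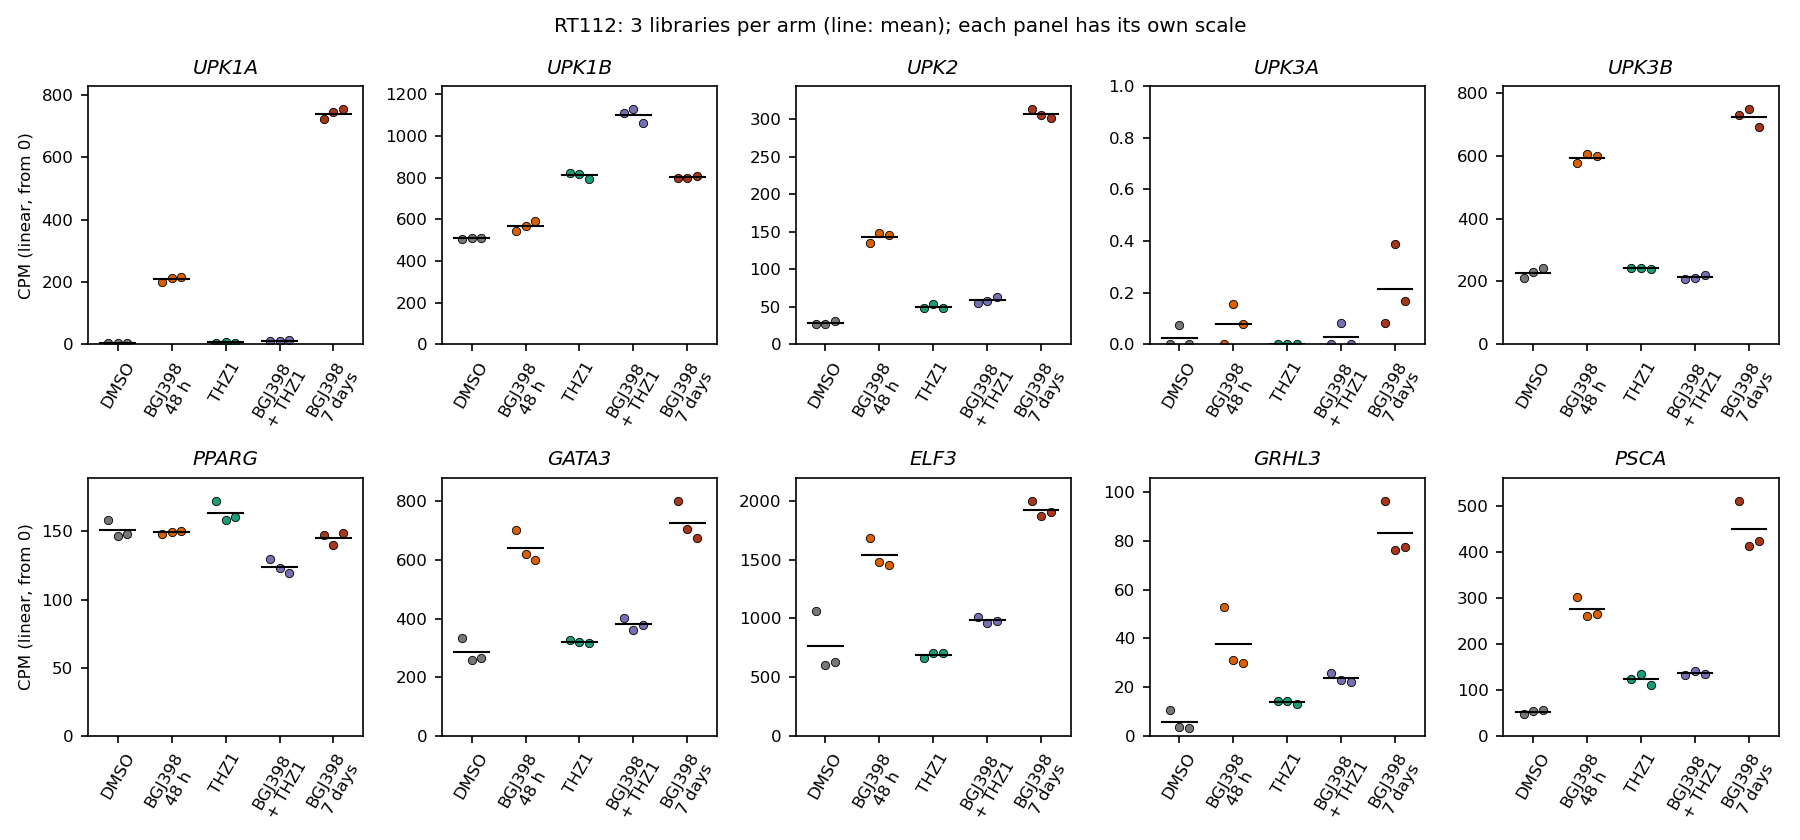
CPM of each of the 10 genes in the 15 RT112 libraries, 1 panel a gene on its own scale from 0, in the arms DMSO, BGJ398, THZ1, combination (all 48 h) and BGJ398 7 days, with 1 point a library and a line at the arm mean. UPK1A, UPK2, GRHL3 and PSCA climb from DMSO over 48 h to 7 days of BGJ398 and stand lower in the combination than under BGJ398, while UPK1B is highest in the combination and UPK3A is at most 0.390 CPM.

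PPARG differed from the other members in direction: it was called lower under the targeted drug at 48 h in 6 of 6 lines, although in RT112 not with library totals as the scaling, and higher in 0. In H3122 it went from 8.05, 6.57 and 6.55 CPM to 2.13, 1.71 and 2.08 CPM (log2 -1.93 ± 0.18), and in A549 from 15.8, 16.8 and 15.2 CPM to 7.42, 5.12 and 4.76 CPM (log2 -1.43 ± 0.14). A375 fell from 46.1, 52.8 and 51.8 CPM to 21.8, 22.7 and 24.2 CPM (log2 -1.13 ± 0.09). In these 3 lines the drug libraries lay wholly below DMSO. PC9 (log2 -0.97 ± 0.07) and N87 (log2 -0.54 ± 0.07) fell as well, also without overlap. RT112, with the highest PPARG of the series, held 158, 147 and 148 CPM in DMSO and 148, 149.6 and 150.2 CPM under BGJ398, which overlap, and its call (log2 -0.18 ± 0.05, adjusted p = 0.0059) was lost with library totals as the scaling (log2 -0.02, adjusted p = 0.733).

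PPARG stayed low where THZ1 was added. Against DMSO the combination was lower in 6 of 6 lines, from -1.57 in H3122 to -0.40 in RT112 on the log2 scale. Against the targeted drug alone it was called higher in A375 (0.66 ± 0.09) and PC9 (0.20 ± 0.08) and fell in N87 (-0.33 ± 0.08) and RT112 (-0.22 ± 0.05). The PC9 call was lost with DESeq2 (adjusted p = 0.0887), no filter on low counts (0.145), the replicate block (0.0607) and without erlotinib replicate 2 or 3 or combination replicate 1 or 3 (0.0517 to 0.147). THZ1 alone was called for PPARG in 2 lines, lower in A549 (-0.55 ± 0.13) and higher in H3122 (0.41 ± 0.14). The H3122 call was lost with DESeq2 (adjusted p = 0.122), no filter (0.116), the replicate block (0.0848) and without DMSO replicate 3 or 4 or any 1 of the THZ1 libraries (0.0604 to 0.153). At 7 days N87 stood above DMSO, at 61.6, 58.0 and 61.6 CPM beside 45.9, 53.3 and 46.4 CPM (log2 0.22 ± 0.07), and the other 5 lines below it, A549 most (-2.64 ± 0.19). Of these 7-day calls of PPARG, that of N87 was lost without DMSO replicate 1 (adjusted p = 0.0593) and that of RT112 with library totals (log2 -0.06, adjusted p = 0.266). The H3122 call was lost with DESeq2 (adjusted p = 0.0814), no filter (0.0638), the replicate block (0.0653), and without DMSO replicate 2 (0.106) or 7-day replicate 4 (0.0590).

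GATA3 rose under the targeted drug in RT112, N87 and PC9 and fell in A375 and H3122. In RT112 it went from 335, 259 and 264 CPM in DMSO to 701, 620.3 and 600.4 CPM under BGJ398 and 802, 705 and 676 CPM at 7 days (log2 1.00 ± 0.10 and 1.199 ± 0.10). The first library of each of these arms is the highest of its arm and belongs to the libraries that stand apart. Without those libraries the changes were 1.06 and 1.25, and DMSO overlapped neither drug arm with or without them. From 48 h to 7 days GATA3 was not called with all libraries (log2 0.20) and was called higher without those that stand apart (log2 0.19, adjusted p = 0.00037). The combination held 403, 362 and 378 CPM, lower than BGJ398 (log2 -0.70 ± 0.10) and higher than DMSO (log2 0.30 ± 0.10). The smaller of these calls, against DMSO, was lost without DMSO replicate 2 or 3 or combination replicate 1 (adjusted p 0.0706 to 0.0810).

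Outside RT112, GATA3 rose from both high and low starting levels. PC9 went from 92.0, 100.3 and 113 CPM to 211, 206 and 189.6 CPM with erlotinib (log2 1.123 ± 0.064), and was 138, 124 and 128 CPM in the combination. N87 went from 3.55, 4.57 and 2.82 CPM to 13.2, 10.8 and 10.99 CPM with lapatinib (log2 1.58 ± 0.16), and in contrast to the uroplakins the combination was higher still, at 18.4 ± 0.732 CPM (SD, n = 3; 0.63 ± 0.12 above lapatinib on the log2 scale). A375 fell from 5.66, 7.06 and 6.41 CPM to 2.18, 2.22 and 3.46 CPM with vemurafenib, and held 13.5, 14.3 and 13.0 CPM in the combination (2.13 ± 0.20 above vemurafenib). By 7 days A375 held 0.795, 1.31 and 0.304 CPM (log2 -2.90 ± 0.26 against DMSO). H3122 fell from a mean of 3.25 ± 0.607 to 1.37 ± 0.125 CPM (log2 -1.34 ± 0.25). GATA3-AS1, on the opposite strand, was 10.2 CPM in RT112 DMSO and 13.4 CPM under BGJ398.

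ELF3 rose at 48 h in RT112, N87, PC9 and A549. In RT112 DMSO held 1065, 603 and 628 CPM, and BGJ398 1682, 1479 and 1452 CPM (log2 0.85 ± 0.15), with 2002, 1870 and 1908 CPM at 7 days (log2 1.18 ± 0.16). The spread in DMSO is that of the first library, which stands apart: without such libraries the changes were 1.09 and 1.46. The combination held 1010, 964 and 978 CPM. It overlapped DMSO and was not called with all libraries (log2 0.25 ± 0.15, adjusted p = 0.173), and was called higher without the libraries that stand apart (log2 0.53, adjusted p = 3.7e-11). From 48 h to 7 days ELF3 was likewise called higher only without them (log2 0.38, adjusted p = 2.2e-08, beside 0.34 and adjusted p = 0.0996 with all).

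N87 showed the largest change of ELF3, from 296, 262 and 290.0 CPM to 1146, 1079 and 1063 CPM with lapatinib (log2 1.86 ± 0.06), and THZ1 did not lower it: the combination held 1255, 1215 and 1199 CPM (0.12 ± 0.05 against lapatinib, not called by edgeR with all libraries and called higher by DESeq2, adjusted p = 0.0409). A549 went from 408, 407 and 387 CPM to 873, 911 and 878 CPM (log2 1.17 ± 0.05) and PC9 from 187, 198 and 279.6 CPM to 497, 472 and 473 CPM (log2 1.25 ± 0.10). In both, the combination was slightly lower than the drug alone (-0.24 ± 0.05 and -0.48 ± 0.10). ELF3-AS1, annotated on the other strand of ELF3, went from 1.77 CPM in RT112 DMSO to 12.9 CPM under BGJ398 and 20.2 CPM at 7 days, a small level beside ELF3 itself.

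GRHL3 rose in RT112, N87 and PC9. PC9 went from 1.39, 1.46 and 2.16 CPM to 19.0, 15.4 and 19.7 CPM at 48 h and 27.2 ± 1.72 CPM (SD, n = 3) at 7 days (log2 3.57 ± 0.16 and 4.03 ± 0.15), and held 6.14, 6.75 and 5.52 CPM in the combination. N87 went from 20.3, 18.5 and 19.6 CPM to 94.4, 76.2 and 79.6 CPM (log2 2.003 ± 0.095) and was lower again at 7 days, at 36.7, 44.2 and 44.8 CPM. The N87 combination, 81.8, 68.7 and 73.1 CPM, overlapped lapatinib alone. In RT112 the DMSO libraries held 10.4, 3.66 and 3.18 CPM and the BGJ398 libraries 52.7, 30.9 and 29.7 CPM (log2 2.54 ± 0.32), with 96.4, 76.1 and 77.3 CPM at 7 days (log2 3.69 ± 0.30). The first library is again the highest in each arm, and without the libraries that stand apart the changes were 2.98 and 4.33.

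With THZ1, GRHL3 in RT112 read 25.7, 22.8 and 22.2 CPM in the combination and 14.1, 14.4 and 13.2 CPM with THZ1 alone. Both lay above every DMSO library (log2 1.91 ± 0.33 and 1.18 ± 0.35, and 2.59 and 1.95 without the libraries that stand apart). The call for THZ1 alone (adjusted p = 0.0138) was lost without DMSO replicate 2 or 3 (adjusted p 0.0656 and 0.0657), and had an adjusted p = 6.7e-11 without the libraries that stand apart. In H3122 GRHL3 was not called at 48 h with all libraries (log2 0.62, adjusted p = 0.0560), and was called higher without the 7-day library that stands apart (log2 0.63, adjusted p = 0.0449). The fall from BGJ398 to the combination (log2 -0.64 ± 0.26, adjusted p = 0.0447) was lost with DESeq2 (adjusted p = 0.145) and without BGJ398 replicate 1 (adjusted p = 0.269) or any 1 of the combination libraries (0.0581 to 0.120). In A375 GRHL3 had 1 count in the 3 vemurafenib libraries together and held 4.33, 4.47 and 3.10 CPM in the combination, above every other A375 library.

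PSCA, which encodes a small lipid-anchored surface protein of bladder, prostate and stomach epithelium, rose with the targeted drug in RT112, N87, PC9 and A549. N87 went from 7.34, 7.78 and 8.01 CPM to 96.9, 87.6 and 86.0 CPM at 48 h and 322, 274 and 252 CPM at 7 days, 36.7-fold above DMSO (log2 3.44 ± 0.12 and 5.10 ± 0.11). PC9 went from 107, 108 and 104.7 CPM to 932, 863 and 836 CPM (log2 3.17 ± 0.05). There the combination held 111, 127 and 119 CPM, close to DMSO (log2 0.21 ± 0.05) and far from erlotinib alone (log2 -2.96 ± 0.05). In RT112 the DMSO libraries held 47.6, 53.4 and 56.5 CPM, the BGJ398 libraries 302, 259 and 265 CPM and the 7-day libraries 510.0, 413 and 424 CPM (log2 2.24 ± 0.10 and 2.95 ± 0.11).

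In RT112 the 2 arms with THZ1 left PSCA at a like middle level: 133, 139.8 and 134 CPM in the combination and 123, 134 and 109.9 CPM with THZ1 alone, all above DMSO and below BGJ398. THZ1 alone had lowered PSCA in PC9 instead, to 37.4, 42.4 and 41.3 CPM (log2 -1.47 ± 0.06). In N87 the combination held 47.8, 50.6 and 49.8 CPM, lower than lapatinib (log2 -0.90 ± 0.09). PSCA in A549 was low throughout, 0.139 ± 0.132 CPM in DMSO and 0.659 ± 0.329 CPM under trametinib (SD, n = 3), and its call was lost without trametinib replicate 2 (adjusted p = 0.0640). JRK overlaps PSCA on the other strand and read 48.5 CPM in RT112 DMSO and 45.1 CPM under BGJ398.

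**Figure D4:**
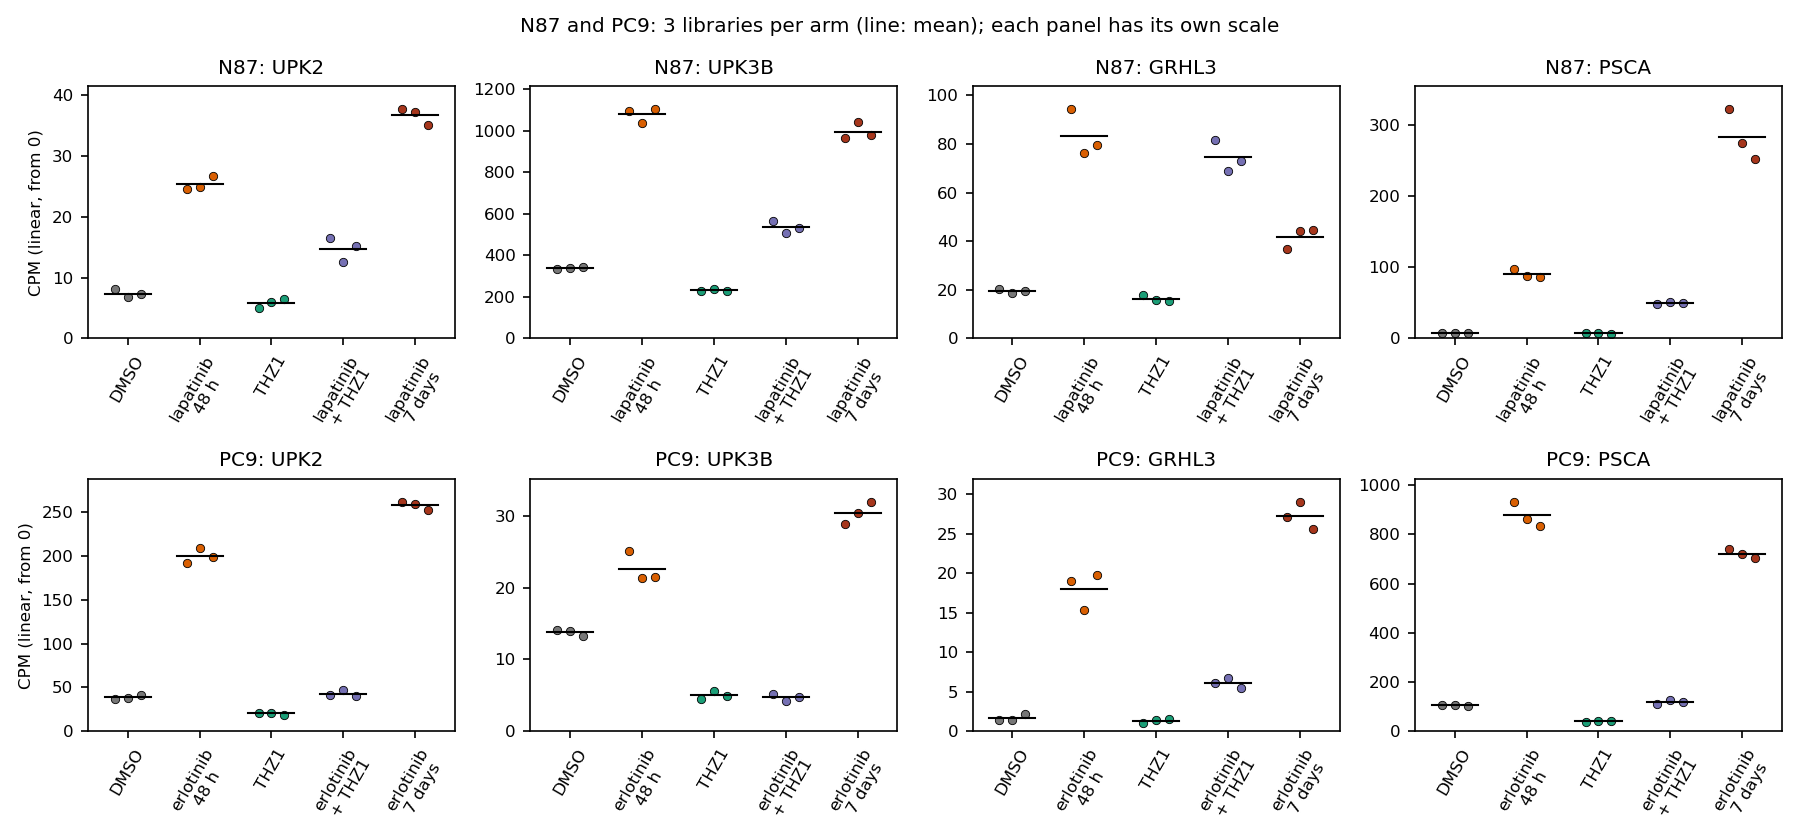
CPM of UPK2, UPK3B, GRHL3 and PSCA in the 15 libraries of N87 and the 15 of PC9, on scales from 0, with 1 point a library and a line at the arm mean. In PC9 the combination of erlotinib and THZ1 lies near DMSO for UPK2 and PSCA and below it for UPK3B, while in N87 the combination of lapatinib and THZ1 stays above DMSO for all 4 genes.

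Per kilobase of transcript (CPM divided by the median length of the coding transcripts in GENCODE v29), the order of the members in RT112 changed with the drug. In DMSO UPK1B led at 519 CPM per kb, followed by ELF3 at 293 and UPK3B at 175 CPM per kb, and UPK1A was at 3.96 CPM per kb. After 7 days of BGJ398 UPK1B stood at 817, ELF3 at 738 and UPK1A at 595 CPM per kb, with PSCA at 571, UPK3B at 559 and UPK2 at 335 CPM per kb. In DMSO UPK1A had been above GRHL3 only, among the 9 detected members. GRHL3 was least of the 9 detected members in both arms, at 2.71 and 39.3 CPM per kb.

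The combination left the 3 lines with most measured members at different points between drug and DMSO. Against the targeted drug alone, 8 of 9 members fell and 1 rose in RT112 (all genes 64.2% called, 31.4% lower), 7 of 10 fell and 1 rose in N87 (55.7%, 28.8% lower), and 7 of 8 fell and 1 rose in PC9 (68.2%, 34.9% lower). Against DMSO, 6 members were still higher and 2 lower in RT112 (64.4% of all genes called), 8 higher and 2 lower in N87 (76.9%), and 5 higher and 2 lower in PC9 (63.3%). The same counts were 4 and 1 of 6 in A375 (64.4%), 4 and 1 of 6 in A549 (72.3%) and 1 and 2 of 6 in H3122 (50.1%). A375 went the other way, with 4 of 6 members higher in the combination than under vemurafenib and 0 lower (68.5%). In A549 1 rose and 2 fell (41.0%). H3122 gave 0 calls of 6 in edgeR's test (29.6% of all genes called), with 0 at an unadjusted p under 0.05 and 0 by DESeq2. ELF3 was called lower there (log2 -0.19, adjusted p = 0.0438) without the 7-day library that stands apart, and also with no filter on low counts, the replicate block and the 2 arms alone (adjusted p 0.0068 to 0.0294).

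Between 48 h and 7 days of the targeted drug, 6 of 9 members rose further in RT112 and 0 fell (all genes 37.0% called), namely the 4 uroplakins tested, GRHL3 and PSCA. Without the libraries that stand apart ELF3 and GATA3 were called higher too, which makes 8 of 9. In N87 6 rose and 3 fell (42.6%), and in PC9 3 rose and 4 fell (52.9%). None of the 6 tested members rose in A375 or A549, where 3 and 5 fell (40.0% and 51.3% of all genes called), and in H3122 1 rose and 4 fell (63.9%). Against DMSO, the 7-day arm held 8 members higher and 1 lower in RT112 (74.0%), 9 and 1 in N87 (70.9%) and 6 and 1 in PC9 (70.4%). In A375 0 were higher and 3 lower (70.7%), in A549 2 and 3 (74.6%), and in H3122 0 and 5 (67.0%). The same 7-day libraries enter both comparisons.

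THZ1 alone set the lines apart for these genes. In RT112 it raised UPK1B, UPK2, GRHL3 and PSCA and lowered 0 of 9 (41.4% of all genes called). Without the libraries that stand apart GATA3 (log2 0.22, adjusted p = 4.7e-05) and ELF3 (log2 0.09, adjusted p = 0.0257) were called higher under THZ1 as well. In N87 it raised 0 and lowered 5 of 10 (30.4%), and in PC9 0 and 6 of 8 (53.7%). A375 gave 2 higher and 2 lower of 6 (55.4%), A549 2 and 1 (46.5%) and H3122 1 and 1 (23.1%). In A375 GRHL3 (log2 1.91) and PSCA were called higher, and ELF3 (log2 -1.57) and UPK3B (log2 -1.12) lower. The GRHL3 call was lost in 3 alternatives and the ELF3 call in 2. The PSCA call in A375 was lost without any 1 DMSO library or THZ1 replicate 2 or 4 (adjusted p 0.0594 to 0.0984). The doses differed, 100 nM in RT112 and PC9 and 25 nM in N87. The difference between RT112 and the mean of the other 5 lines was tested in 1 fit over all 30 groups. It was called for UPK1B (0.90 ± 0.25 higher in RT112, adjusted p = 0.0039) and PSCA (1.13 ± 0.28, adjusted p = 0.0013), where 23.4% of all genes were called. Without the libraries that stand apart ELF3, GRHL3 and GATA3 were called too (adjusted p 9.2e-05, 0.0057 and 0.0442). For the targeted drug at 48 h the same test was called for PPARG (1.06 ± 0.08), GATA3 (0.95 ± 0.12), GRHL3 (1.85 ± 0.60) and UPK2 (0.74 ± 0.26), where 35.8% of all genes were called, and without the libraries that stand apart for ELF3 too (adjusted p = 0.0089). The mean of the other lines includes lines in which a gene is below 1 CPM, the drugs differ between lines, and UPK3A could not be fitted in either comparison, nor UPK1A in that of the targeted drug.

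With the lines as the replicates and the 3 libraries of an arm summed, 4 members passed the filter. It asked for 1 CPM in at least 3 libraries of every line, in any arm. PSCA passed in A549 only through drug arms, as its DMSO libraries there held at most 0.2625 CPM. Its A549 change is thus part of how it was admitted. PPARG fell under the targeted drug at 48 h (-0.92 ± 0.28, adjusted p = 0.0133, lower in 6 of 6 lines), and PSCA (2.07 ± 0.69, adjusted p = 0.0218) and ELF3 (0.81 ± 0.28, adjusted p = 0.0258) rose, each higher in 5 of 6 lines, where 37.1% of all genes were called. At 7 days the same 3 genes were called, PPARG lower (-0.75 ± 0.28) and ELF3 (0.73 ± 0.28) and PSCA (2.48 ± 0.71) higher (43.3% of all genes). With edgeR's own filter in place of the 1 CPM minimum all 10 members enter, and the ELF3 call at 7 days was lost (0.68, adjusted p = 0.0591). That fit called UPK1A, UPK2 and UPK3B higher at 48 h and UPK1A, UPK2 and UPK3A higher at 7 days. UPK1A stayed below 1 CPM in every library of A375, A549 and H3122, and UPK2 did so in A375 and A549. UPK3A did so in all lines but N87 and PC9, and UPK3B in H3122. These uroplakins entered through the lines and arms where they are higher, so their calls in that fit are part of how they were admitted. In the combination against DMSO only PPARG was called (-0.84 ± 0.28, 30.9% of all genes). GATA3 was not called in any of the 6 comparisons. For THZ1 alone and for the combination against the targeted drug 0 of the 4 members were called, where 0.0842% and 8.03% of all genes were. Between 48 h and 7 days edgeR called 0 of the 4 members and 0% of all genes. None of the 4 had an unadjusted edgeR p under 0.05 either, and DESeq2 called 0 of the 4. Of these 7 calls, 3 were left without A549, 2 without N87, 2 without PC9 and 4 without RT112. Without A375 the PPARG call at 7 days was lost (adjusted p = 0.127). The PPARG call in the combination was lost without H3122 (adjusted p = 0.0536), and also without A549, N87 or PC9 (0.0579 to 0.0634). The 48 h call of ELF3 was lost without any 1 of A549, N87, PC9 and RT112 (0.0733 to 0.113).

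Other genes of the pathway were read in RT112 from 3 lists. Of the luminal partners, such as FOXA1, KLF5, RXRA and the simple keratins, 17 of 18 were tested, and 10 rose and 4 fell under BGJ398 at 48 h (34.2% of all genes higher and 35.1% lower; median log2 0.37, beside 0.02 over all genes). CYP4B1, a cytochrome P450 of the urothelium, went from 9.22 CPM (8.28 to 10.5 CPM over 3 libraries) to 36.4 ± 2.34 CPM at 48 h and 43.5 ± 1.22 CPM at 7 days, and was 6.88 ± 0.831 CPM in the combination. SNX31, a sorting nexin that binds uroplakin cargo, went from 4.29 ± 0.280 to 15.3 ± 1.18 and 36.6 ± 3.02 CPM, and was 0.967 ± 0.153 CPM in the combination. In the combination both had means below those in DMSO. Against BGJ398 alone, 4 of the 17 luminal partners tested rose and 10 fell in the combination (32.8% of all genes higher and 31.4% lower).

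Basal and squamous genes moved the other way in RT112. Of 12, 11 were tested, and 1 rose and 8 fell under BGJ398 at 48 h (median -0.89), beside the same 34.2% and 35.1% of all genes. TP63, a transcription factor of basal urothelium, went from 226 ± 2.47 CPM to 58.6 ± 2.59 CPM at 48 h and 37.8 ± 2.24 CPM at 7 days. THZ1 alone left 52.1 ± 2.06 CPM of TP63 and the combination 7.79 ± 0.523 CPM, so here the combination lay below both single drugs (log2 -4.97 ± 0.06 against DMSO). CD44, a hyaluronan receptor of basal cells, went from 342 ± 1.11 to 45.3 ± 1.83 CPM and ITGA6, a basement membrane integrin, from 483 ± 13.2 to 107.0 ± 3.45 CPM. In the combination they held 66.2 ± 3.36 and 132 ± 2.41 CPM. At 7 days 1 basal gene was higher and 9 lower than in DMSO (37.0% of all genes in each direction; median -1.85), with KRT6A and DSC3 joining those down at least 4-fold.

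PPAR target genes gave a mixed picture. Of 11, 7 were tested at 48 h in RT112, with 4 higher and 2 lower (median 1.14; all genes again 34.2% and 35.1%). FABP4, a fatty acid carrier and a PPARG target in fat and urothelium, was the most abundant and fell from 1176 ± 10.0 CPM to 337 ± 16.3 CPM under BGJ398, 240.0 ± 12.3 CPM at 7 days and 190.3 ± 2.78 CPM in the combination (log2 -2.74 ± 0.06 against DMSO). PDK4 had 1 count in RT112 DMSO and reached 0.863 ± 0.178 CPM at 7 days. In the other lines at 48 h, luminal partners were higher and lower in 12 and 1 of 15 tested in PC9 (all genes 35.2% and 32.8%), 7 and 5 of 16 in N87 (35.5% and 35.4%), 6 and 2 of 11 in A549 (36.8% and 37.4%), 1 and 8 of 13 in H3122 (22.0% and 24.1%) and 2 and 5 of 10 in A375 (34.3% and 32.9%). The basal list gave 0 higher and 8 lower of 11 in N87, and 6 and 4 of 11 in PC9. In A549 it gave 6 and 1 of 9 (median log2 2.27), in H3122 1 and 4 of 9 and in A375 2 and 4 of 7. The shares of all genes are those given for the same lines.

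Markers of other cell types moved with BGJ398 in RT112. The summed level of 5 blood genes was 2.64 to 2.89 CPM in DMSO, 19.5 to 20.3 CPM at 48 h and 68.5 to 72.3 CPM at 7 days, nearly all of it LYZ, while HBB was at 0 in these arms. The 6 fibroblast and endothelial genes summed to 16.9 to 31.1 CPM in DMSO, 37.5 to 56.1 CPM at 48 h and 59.5 to 67.5 CPM at 7 days. CDH5, an endothelial cadherin, reached 5.93 CPM at 48 h and 12.6 CPM at 7 days. Their part in the changes of the members was not tested.

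**Figure D5:**
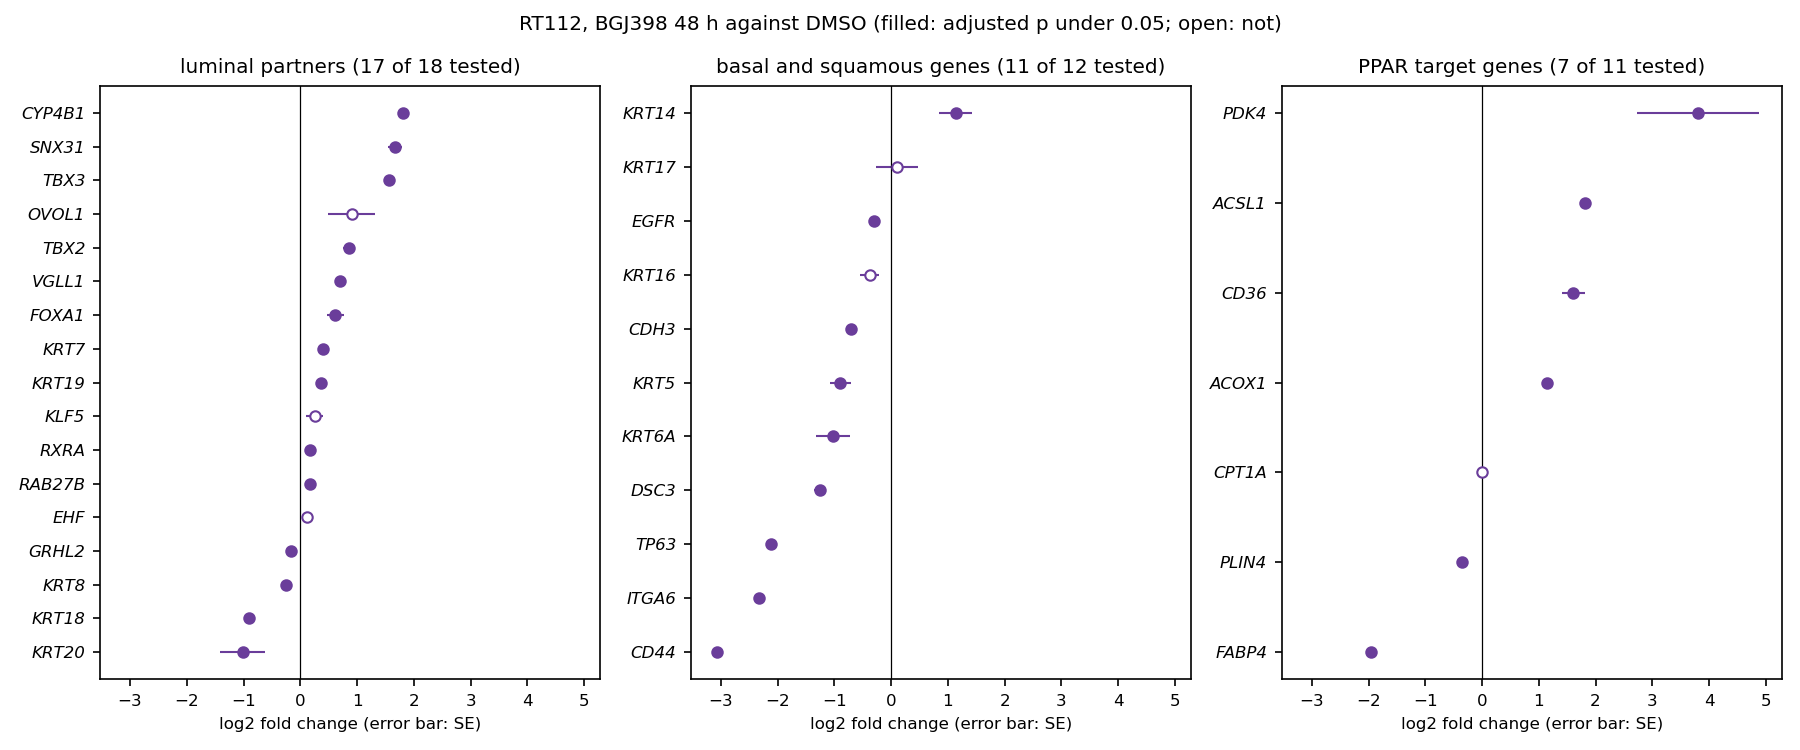
Log2 fold change under BGJ398 at 48 h against DMSO in RT112 for the tested genes of 3 lists, luminal partners (17 of 18), basal and squamous genes (11 of 12) and PPAR target genes (7 of 11), with filled points for called genes. TP63, CD44 and ITGA6 lie lowest, at -2.11, -3.08 and -2.34.

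The genes most like a member were named as the 3 with the highest Pearson r of log2(CPM + 1) over the 30 group means, out of 16351 genes. The 30 points share 6 lines and are not independent, so r is a description. UPK2 was most like VSIG2 (0.983), PSCA (0.978) and MMRN2 (0.959), and PSCA in turn like MMRN2 (0.979), UPK2 (0.978) and VSIG2 (0.973). ELF3 was most like the adhesion genes CDH1 (0.982) and TJP3 (0.982) and like ATP8B1 (0.974). GATA3 was most like its antisense partner GATA3-AS1 (0.965), then GBP6 (0.948) and SNCG (0.948). UPK1A was most like HSPD1P6 (0.950), MOGAT2 (0.947) and CDH26 (0.931), and UPK1B like TRIM31 (0.942), DSCAML1 (0.909) and PKD1P2 (0.907). UPK3B was most like CYP4F12 (0.918), SLC16A5 (0.915) and LPIN3 (0.911). GRHL3 was most like SDHAP1 (0.913), BICDL2 (0.905) and NECTIN4 (0.904), and PPARG like PRMT7 (0.895), TRIM11 (0.885) and WASH6P (0.869). UPK2 and PSCA were the one pair of members in which each was among the 3 genes most like the other.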

How the data were processed

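RNA was extracted from 90 libraries, 3 for each of 30 groups (6 lines by 5 arms), with an RNeasy micro kit and prepared with NEBNext Ultra RNA kits, per the labels. The authors deposited expected counts per gene, which need not be whole (between 7.83 and 13.75% of values per library were fractional). Bowtie2 2.2.1, RSEM 1.2.12 and hg19 are named in the submitters' processing notes. The gene annotation and the use of strand in counting are not given in the sources used here. Of 53893 Ensembl IDs, 47111 were matched to a symbol, and 6782 unmatched IDs held 1.26% of counts. Library totals were 5.64 to 14.36 M counts.

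Counts were rounded and tested within each line over its 15 libraries by edgeR 4.0.16 (R 4.3.3) with TMM scaling, filterByExpr, a quasi-likelihood test and Benjamini-Hochberg adjustment over the 14810 to 16106 genes tested. RT112 was compared with each other line over the 18 DMSO libraries. The fit across lines used counts summed per arm with the line as a block. It covered 11875 genes with at least 1 CPM in at least 3 libraries of every line. The fit of RT112 against the mean of the other lines used all 30 groups. The pipeline was tested on simulated data. CPM divides by the library total, so CPM folds and fitted folds can differ.

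All 10 members are named, though not in every line where they reach 1 CPM in a library. Changes are given with values for many, not all, of the members called with at least a 2-fold change. The others enter the counts by line. Partner genes are named at 4-fold in RT112. The members and lists were chosen with earlier results of these data known. Groups come from the sample titles, also for the A375 vemurafenib library whose tissue label reads lung. Libraries of one line that share a replicate number were not taken as paired, since in 0 of the 10 comparisons with 3 shared numbers was every correlation of their deviations above 0.1. Comparisons with 2 shared numbers were outside that rule, so pairing is not excluded there. In RT112 these gave 0.23 and 0.107 at 7 days against 48 h, and 0.285 and 0.0781 for BGJ398 at 48 h against DMSO. Alternatives were DESeq2 1.42.0, library totals without TMM, no filter on low counts, a filter of 1 CPM in 3 libraries, a replicate block, the 2 arms alone, and leaving out each library, the libraries that stand apart, or each line. The ± values are SDs or fitted SEs and cover the spread between these libraries. The upper limits for 0 counts cover counting error only.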

Additional observations from a re-analysis of the deposited data

Results flagged for a closer look

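In 6 cases the response of RT112 differed from the mean response of the other 5 lines in 1 fit over all 30 groups, with edgeR's quasi-likelihood test and Benjamini-Hochberg adjustment over all genes. For the targeted drug at 48 h against DMSO the log2 differences, RT112 minus the others, were 1.058 for PPARG (adjusted p = 1.6e-19), 0.9505 for GATA3 (adjusted p = 7.3e-10), 1.849 for GRHL3 (adjusted p = 0.0096) and 0.7437 for UPK2 (adjusted p = 0.0252). For THZ1 against DMSO they were 0.9019 for UPK1B (adjusted p = 0.0039) and 1.126 for PSCA (adjusted p = 0.0013). Tested line by line, THZ1 alone was called higher for UPK1B in 2 of 3 lines, RT112 and A549. For PSCA it was called higher in 2 of 6 lines, RT112 and A375, the A375 call not in every alternative. Of all genes, 35.8% and 23.4% were called in these 2 comparisons, which share their DMSO libraries. PPARG changed by -1.199 on average in the other 5 lines tested alone and by -0.18 in RT112 on the log2 scale. At 48 h some single lines rose more than RT112. GATA3 rose by 1.58 in N87 beside 1.00 in RT112, GRHL3 by 3.57 in PC9 beside 2.54, and UPK2 by 2.50 in PC9 beside 2.16. UPK2 rose by 1.855 on average in the 3 other lines tested alone. The mean of the other lines in the fit includes lines in which a gene is below 1 CPM or fell. The targeted drug and the THZ1 dose differ between the lines, so line, drug and dose cannot be told apart.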

How the results depend on the processing

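Under DESeq2, library totals, no filter on low counts, a replicate block and the 2 arms alone, 14, 10, 11, 11 and 4 of the calls for single members were lost, and with a filter of 1 CPM in 3 libraries 0. Among called values 0 changed direction. Leaving out 1 library at a time lost 26 of 205 calls, and leaving out those that stand apart 0 of 62. Calls kept in every alternative run were 33 of 37 for the targeted drug at 48 h, 16 of 24 for THZ1, 28 of 32 for the combination against the targeted drug, 32 of 38 for it against DMSO, 35 of 39 at 7 days against DMSO and 31 of 35 against 48 h. Of those with at least a 2-fold change, 28 of 29, 5 of 8, 15 of 15, 19 of 21, 27 of 27 and 17 of 17 were kept. For values not called, UPK1B in RT112 under BGJ398 at 48 h turned from -0.005 to 0.156 with library totals (adjusted p = 0.0012), and ELF3 in RT112 under THZ1 turned from -0.23 to 0.0934 without the libraries that stand apart (adjusted p = 0.0257). The cause was not tested. Calls across lines went from 7 to 3 without A549, 2 without N87, 2 without PC9 and 4 without RT112, with fewer lines as replicates. Without A375 or H3122 the count stayed at 7, although a PPARG call was lost in each. The THZ1 responses in which RT112 differed from the other lines went from 2 to 5 without the libraries that stand apart. With no filter on low counts, members lower in RT112 than in another line went from 4 to 6.

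Leaving out 1 library at a time, members higher and lower ranged over 28 to 30 and 8 to 9 for the targeted drug at 48 h, 7 to 10 and 13 to 16 for THZ1, 7 to 9 and 23 to 25 for the combination against the targeted drug, 27 to 29 and 10 to 11 for the combination against DMSO, 24 to 26 and 12 to 15 at 7 days against DMSO, 16 to 17 and 18 to 19 at 7 days against 48 h, and 39 to 40 and 4 to 5 for RT112 against other lines. With the replicate block, members higher and lower were 29 and 8, 9 and 13, 8 and 24, 28 and 10, 25 and 14, and 18 and 17 in the same order of the first 6 comparisons, so it moved no count by over 1.5 times. UPK1B in N87 at 48 h lost its call under the block (adjusted p = 0.0893). Correlations of same-numbered libraries were -0.116 to 0.0981 outside RT112 and 0.00871 to 0.285 in RT112. Library totals moved the median of all genes by up to 0.17 on the log2 scale. With 3 libraries of 5.64 to 14.36 M counts, members below 1 CPM rest on a few counts and small changes in them were not detectable at this depth.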
